A study of Mus musculus with 12 samples.

Results

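The NF-kB subunits and inhibitors are the 5 genes that encode the DNA-binding subunits of this transcription factor (Nfkb1, Nfkb2, Rel, Rela and Relb) and 5 genes whose products restrain it (Nfkbia, Nfkbib, Nfkbie, Nfkbiz and Tnfaip3). The rule for choosing them used gene names and no measured value, but the choice was made with earlier results of these data known. Each was found among the 54345 genes of the series. All 10 were among the 25044 genes tested, which had a value above 0 in at least 3 libraries. The 12 libraries were made from poly(A) RNA of the cardiomyoblast line H9c2, which the study describes as rat, and the treatments lasted 6 h. The Unt group was left untreated, the DOX group received the anthracycline doxorubicin, the D_DXZ group received doxorubicin with dexrazoxane, an iron chelator given to protect the heart, and the D_MgHCF group received doxorubicin with magnesium hexacyanoferrate nanocatalysts. Each group had 3 libraries, all from the same wild-type line, and the 3 groups other than Unt shared the doxorubicin treatment. The doses in the sequenced cells are not named in the sources used here, and a group that received either protective agent without doxorubicin was not analysed here.

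NF-kB proteins form homo- and heterodimers that are held in the cytoplasm by inhibitors of the IkB family. Signals from cytokine receptors, Toll-like receptors or DNA damage activate the IkB kinase complex, the IkB proteins are degraded, and the freed dimers enter the nucleus and bind kappaB sites. Several inhibitors and subunits are themselves target genes, so that the pathway feeds back on itself, and in heart muscle cells it is known for roles in inflammation and in survival under stress.

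Values are FPKM, fragments per kilobase of gene after scaling for library size. They are per length, which allows only a rough comparison between genes here. The cells are described as rat, the genes and lengths are of mouse, and the effect of this on levels between genes was not tested. Fold changes are differences of log2(FPKM + 1), which understates the change of low genes, and a gene was called when its adjusted p in limma was under 0.05 over all 25044 genes. The reads on genes recovered from the values ranged from 16626514 to 19365119 per library. The labels do not say that replicates came from separate cultures, so the p-values measure only the spread between these samples, which may be technical. D_MgHCF library 3 stood apart from libraries 1 and 2 of its group (chi-square per gene of 152 and 98.6, against 34.7 between libraries 1 and 2), and results that rest on it are given with and without it. Among 9 muscle markers only Des reached 1 FPKM in Unt, at 1.46 ± 0.105 FPKM (SD, n = 3), and 5 were at 0 in every Unt library, including Myod1 and Myog. Of 6 cardiac markers, 1 rose (Tnnt2, a sarcomere gene, from 0.133 to 0.903 FPKM) and 1 fell (Gata4, a transcription factor, from 10.3 to 3.35 FPKM) in DOX against Unt, and in D_MgHCF they were at 0.424 and 19.2 FPKM. Of 6 fibroblast and mesenchymal markers, 2 rose in DOX (Vim from 243 to 1042 FPKM and Col1a1 from 19.98 to 70.6 FPKM) and 1 fell (Pdgfra from 0.718 to 0.352 FPKM), and in D_MgHCF these were at 122, 23.7 and 0.537 FPKM. The summed leukocyte markers were between 1.04 and 1.22 FPKM in the Unt libraries and between 2.05 and 5.45 in the treated ones. Of 5 leukocyte markers tested, 1 was called higher in DOX against Unt. Cd68, the only one to average 1 FPKM, was at 1.03 in Unt, 3.06 in DOX, 4.09 in D_DXZ and 3.26 in D_MgHCF. The part of these marker levels in the results was not tested.

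The start regions of 7 of the 10 members were found in RefSeq (GRCm38.p6), and those of Nfkb1, Relb and Nfkbiz had no entry. They are mouse sequences, whereas the cells are described as rat. A match to the kappaB consensus of 10 bases, searched on both strands with overlapping matches kept, was found in at least 1 start region of 5 members and in none of Rela or Nfkbib. Among all 32851 start regions of 300 bases, 4.51% held a match and 0.554% held 2 or more. Counted by gene, 5.14% of 27025 genes held a match in at least 1 start region. The 250 bases before the start are shown for the 5 members with a match, because they include the inhibitors that feed back on the pathway. Capitals mark the matches, and a match is a description of the letters only.
Nfkbia (chr12:55492648-55492897, minus strand): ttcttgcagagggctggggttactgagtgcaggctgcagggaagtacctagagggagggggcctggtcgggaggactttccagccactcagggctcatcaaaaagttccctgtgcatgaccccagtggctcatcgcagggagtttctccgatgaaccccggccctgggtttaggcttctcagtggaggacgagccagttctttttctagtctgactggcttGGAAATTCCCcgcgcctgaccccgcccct
Nfkbie (chr17:45555450-45555699, plus strand): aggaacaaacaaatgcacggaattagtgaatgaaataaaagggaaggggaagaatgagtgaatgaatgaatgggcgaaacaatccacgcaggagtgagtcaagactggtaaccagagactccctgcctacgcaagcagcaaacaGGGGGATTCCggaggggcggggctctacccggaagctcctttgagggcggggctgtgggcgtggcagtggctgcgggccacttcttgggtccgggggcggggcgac
Tnfaip3 (chr10:19015411-19015660, minus strand): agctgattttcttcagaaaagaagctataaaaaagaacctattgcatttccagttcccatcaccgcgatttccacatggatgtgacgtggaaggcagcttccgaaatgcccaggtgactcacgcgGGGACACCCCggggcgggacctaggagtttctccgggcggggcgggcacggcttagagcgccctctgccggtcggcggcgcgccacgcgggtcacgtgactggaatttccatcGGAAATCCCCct
Nfkb2 (chr19:46304487-46304736, plus strand): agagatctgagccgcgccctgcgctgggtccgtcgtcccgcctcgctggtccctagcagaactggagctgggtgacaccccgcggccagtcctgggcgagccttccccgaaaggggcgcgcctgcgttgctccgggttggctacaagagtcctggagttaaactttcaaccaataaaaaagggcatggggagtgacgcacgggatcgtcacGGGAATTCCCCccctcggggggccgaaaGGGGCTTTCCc
Rel (chr11:23770970-23771219, minus strand): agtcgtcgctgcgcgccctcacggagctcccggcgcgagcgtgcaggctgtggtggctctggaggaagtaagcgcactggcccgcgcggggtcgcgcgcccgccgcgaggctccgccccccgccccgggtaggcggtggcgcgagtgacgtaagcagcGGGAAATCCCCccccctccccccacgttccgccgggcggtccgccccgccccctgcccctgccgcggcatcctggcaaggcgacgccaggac
The match of Nfkbia began 29 bases before the start and that of Nfkbie 106 bases before it. Tnfaip3 held matches 125 and 12 bases before its start. The first of 3 start regions of Nfkb2 held an overlapping pair of matches 39 and 38 bases before the start and another 11 bases before it. Rel held an overlapping pair 92 and 91 bases before its start.

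In untreated cells, Nfkb2 had the highest FPKM of the members, with 67.5, 69.3 and 80.5 in the 3 libraries. Nfkb2 (ENSMUSG00000025225, GRCm38 chromosome 19, 46304737 to 46312090) encodes the precursor of a subunit of the non-canonical pathway. Rela, the main transactivating subunit, followed with 39.2, 44.6 and 49.8 FPKM, and Nfkbia, the IkB that captures it, with 41.4, 39.1 and 39.6 FPKM. The ranges of these 2 genes overlapped, so their order was not resolved. Relb, Nfkbie and Nfkb1 came next at 11.8, 10.8 and 10.7 FPKM on average, with ranges that overlapped from each to the next. Nfkbib at 7.98, Nfkbiz at 5.74, Rel at 3.10 and Tnfaip3 at 1.97 FPKM were each separated from their neighbours in this order.

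Doxorubicin was followed by lower levels of most members. Under the deposited scaling, 8 of the 10 fell, none rose, and 2 were not called, where 19.9% of all genes tested fell and 18.6% rose. The genes tested include many with low levels, and the shares called among the 11515 genes with a mean of at least 1 FPKM are not given here. Of those 11515 genes, 0.0868% had a lower log2 change than Nfkbia, 11.8% than Relb, 19.8% than Tnfaip3, 30.8% than Nfkbib and 31.7% than Nfkb1. The other 3 that fell lay between Relb and Tnfaip3. The largest fall was that of Nfkbia, from 40.05 ± 1.22 FPKM in Unt to 2.67 ± 1.07 in DOX (SD, n = 3). Nfkb2 was the exception among the subunits, with no call under this scaling and a fall under 3 other scalings, given below. The groups did not overlap for 9 members, but the share of all genes without overlap is not given here. The median log2 change of the 10 was -1.03 against 0 over all genes tested. In bulk RNA, fewer cells of a type and less RNA per cell cannot be told apart.

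Rela (ENSMUSG00000024927, chromosome 19, 5637483 to 5648130) fell to 18.2, 17.8 and 17.4 FPKM in DOX. All DOX libraries lay under all Unt libraries, with a spread of 0.397 FPKM (SD, n = 3) against 5.31 in Unt. The change of Rela was -1.27 on the log2 scale (SE 0.176, adjusted p = 0.000196 in limma). Relb (ENSMUSG00000002983, chromosome 7, 19606217 to 19629438), the transactivating partner of the Nfkb2 product, went from 11.2, 11.1 and 13.0 FPKM in Unt to 4.53, 4.41 and 3.72 in DOX. The ranges were far apart, and the log2 change was -1.29 (adjusted p = 1.41e-05 in limma). Rel (ENSMUSG00000020275, chromosome 11, 23736847 to 23770970), a transactivating subunit best known from lymphocytes, went from 3.49, 2.93 and 2.87 FPKM to 0.979, 0.981 and 0.822. The DOX values rested on 71 to 111 reads per library, did not overlap those of Unt, and gave a log2 change of -1.09 (adjusted p = 0.000259 in limma). Nfkb1 (ENSMUSG00000028163, chromosome 3, 135584655 to 135691547), which encodes the precursor of the canonical partner of Rela, fell less. Its values were 10.3, 10.7 and 11.2 FPKM in Unt and 5.76, 7.19 and 7.83 in DOX, without overlap. The log2 change of Nfkb1 was -0.57 (SE 0.129, adjusted p = 0.00451 in limma). Nfkb2 had 77.1, 62.5 and 68.0 FPKM in DOX, a range that overlapped that of Unt. Its log2 change was -0.07, with a 95% confidence interval from -0.34 to 0.21.

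Among the inhibitors, Nfkbia (ENSMUSG00000021025, chromosome 12, 55489410 to 55492647) had 3.85, 1.74 and 2.42 FPKM in DOX, from 36 to 94 reads per library. All 3 values lay far under the lowest Unt value of 39.1 FPKM, and the log2 change was -3.52 (SE 0.324, adjusted p = 1.91e-05 in limma). Of the 11515 genes with a mean of at least 1 FPKM, 0.0868% had a lower log2 change than Nfkbia. Nfkbiz (ENSMUSG00000035356, chromosome 16, 55811375 to 55838899), an atypical nuclear IkB that also helps to activate some target genes, went from 6.19, 5.41 and 5.603 FPKM to 2.09, 2.00 and 2.02. The DOX values lay close together and under all Unt values, with a log2 change of -1.15 (adjusted p = 0.00175 in limma). Nfkbib (ENSMUSG00000030595, chromosome 7, 28758251 to 28767512), another classical IkB, went from 7.61, 8.004 and 8.32 FPKM to 5.07, 5.21 and 4.46. The groups did not overlap and the log2 change was -0.60 (adjusted p = 0.00528 in limma). Tnfaip3 (ENSMUSG00000019850, chromosome 10, 19000910 to 19015657), a ubiquitin-editing enzyme that shuts off signalling upstream of the IkB kinases, went from 1.99, 1.92 and 2.00 FPKM to 0.620, 0.496 and 0.407. These values rested on 34 to 68 reads per DOX library and did not overlap those of Unt. The log2 change of Tnfaip3 was -0.98 (adjusted p = 0.0239 in limma), and the call was lost without any 1 of the Unt libraries or without DOX library 2 or 3 (adjusted p from 0.0586 to 0.0724). The SE of the fit is drawn from all 4 groups together. The SD of Tnfaip3 was 0.0439 FPKM in Unt, 0.107 in DOX and 2.02 in D_MgHCF, and its lowest adjusted p in limma with 1 library left out was 0.00174. Nfkbie (ENSMUSG00000023947, chromosome 17, 45555716 to 45563169), also a classical IkB, had 10.9, 9.99 and 11.6 FPKM in Unt and 9.68, 4.76 and 4.604 in DOX. DOX library 1 lay close to the Unt values and the other libraries far under them. The log2 change of Nfkbie was -0.75 (adjusted p = 0.0534 in limma), and it was -1.06 (adjusted p = 0.00553) without that library. At an unchanged -0.75, Nfkbie was also called without D_MgHCF library 1 (adjusted p = 0.0214 in limma) or 3 (adjusted p = 0.0368).

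**Figure D1:**
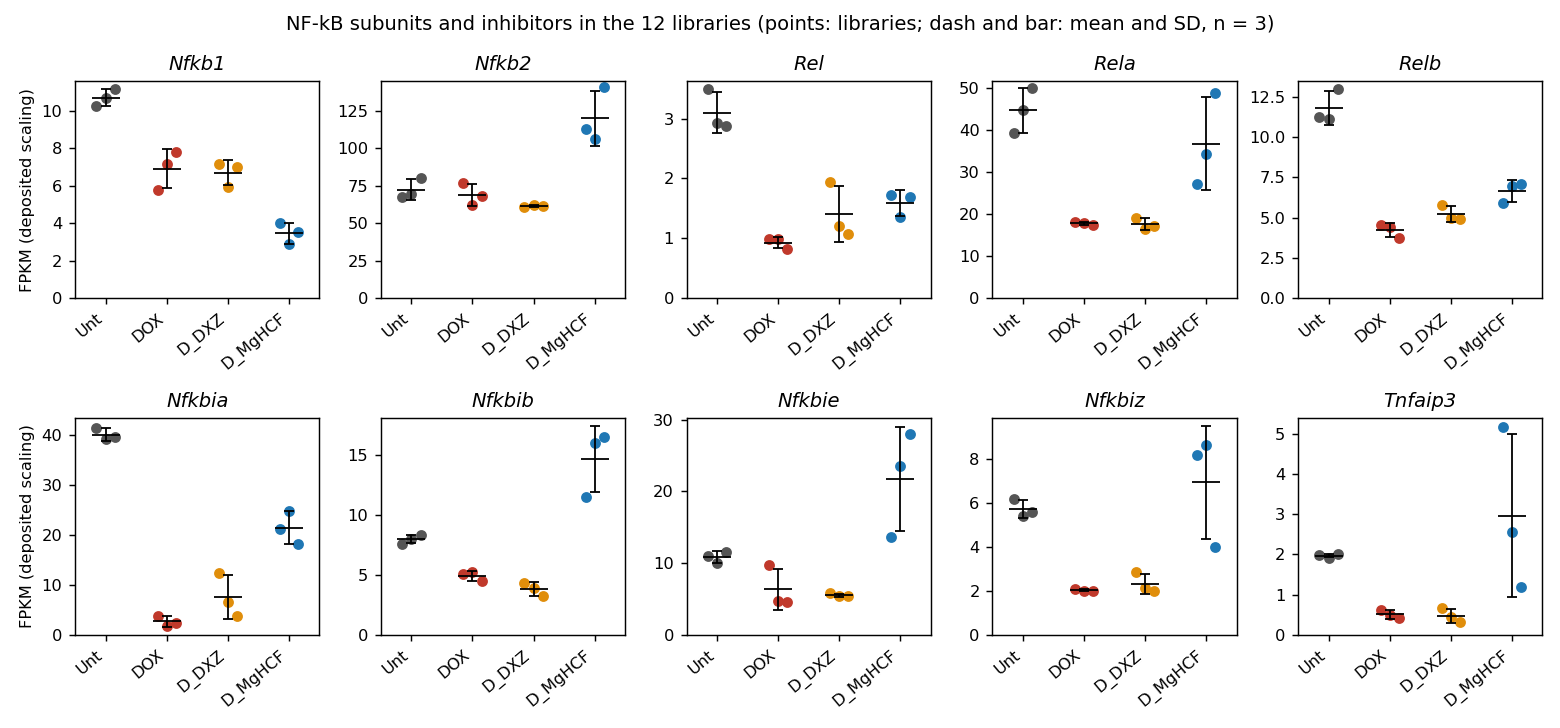
FPKM (y axis, deposited scaling, from 0) of the 10 members in each library, with a dash for the mean and a bar for the SD of 3 libraries in Unt, DOX, D_DXZ and D_MgHCF. Nfkbia stood between 39.1 and 41.4 FPKM in Unt and between 1.74 and 3.85 in DOX, and Nfkb1 was lowest in D_MgHCF.

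The library scaling changes how large these falls are. The deposited FPKM contain a median-ratio scaling, so that the median log2 change of genes with a mean of at least 1 FPKM was 0.05 for DOX against Unt and -0.09 for D_MgHCF against DOX. When each library was instead brought to an equal FPKM sum (TPM), these medians were -1.18 and 0.99. With reads scaled to the summed reads on genes they were -0.69 and 0.67, and with quantile normalization 0.03 and -0.06. Relative to the TPM median, Nfkbia was still at -3.87 and Rela at -1.47 for DOX against Unt. Nfkb2 was called lower in DOX with TPM (-1.43), summed reads (-1.002) and quantile normalization (-1.32), and lay -0.25 from the median with TPM but -1.34 with quantile normalization. The number of members that fell was 10 with TPM, 10 with summed reads and 6 with quantile normalization, which lost the calls of Nfkbib, Nfkbiz and Tnfaip3 and gained that of Nfkb2. The shares of all genes that fell under these scalings are not given here, and the medians above were shifted down with TPM and summed reads. The cause of the difference between scalings was not tested.

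**Figure D2:**
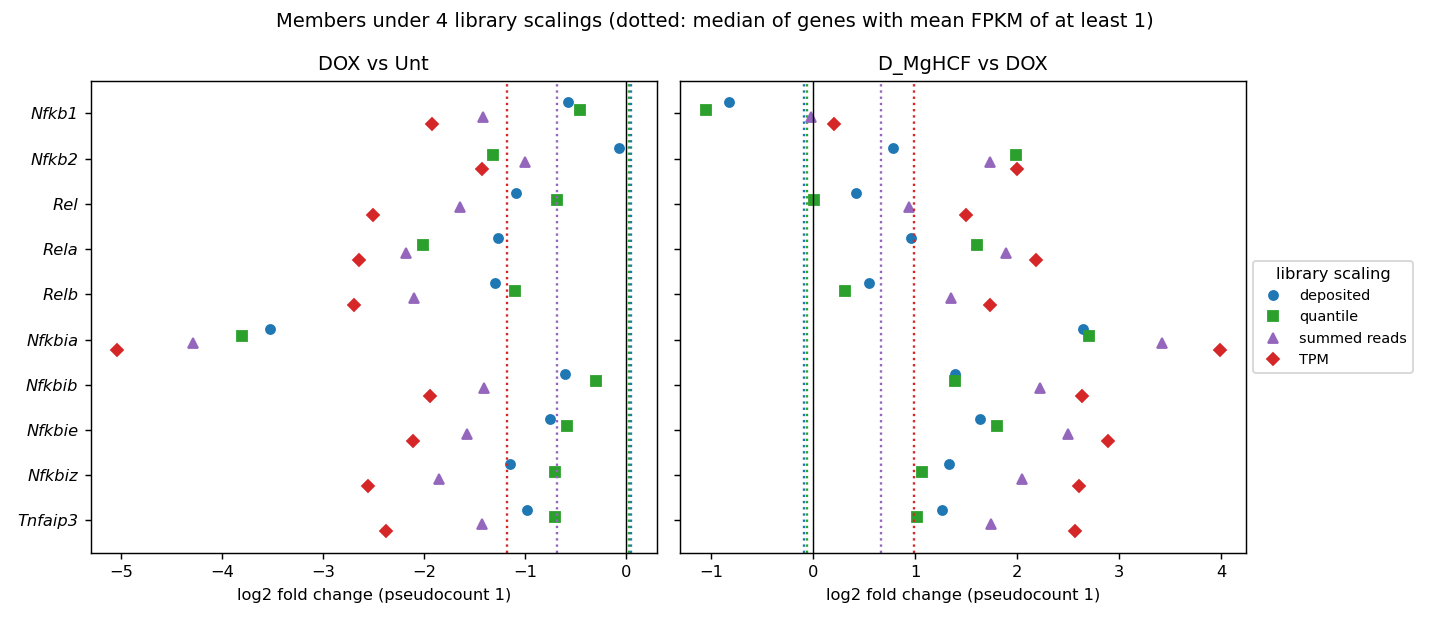
Log2 fold change (x axis) of each member under 4 library scalings for DOX against Unt and D_MgHCF against DOX, with a dotted line in the same colour at the median of the 11515 genes that had a mean of at least 1 FPKM as deposited. Nfkbia was lowest for DOX and highest for D_MgHCF under each scaling, and Nfkb1 changed sign with TPM in the right panel (0.21 against -0.82 as deposited). Relative to the dotted line of the same scaling, Nfkb1 was at -0.78 with TPM and -0.74 as deposited there.

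Dexrazoxane added to doxorubicin was not followed by a called change in any member. The counts were 0 higher and 0 lower of 10, where 0% of all genes tested rose and 0% fell in limma. At an unadjusted p under 0.05 there were 2388 genes, among them 2 members. Those 2 members were Nfkbia and Relb. Nfkbia had 12.5, 6.64 and 3.81 FPKM in D_DXZ, against 3.85, 1.74 and 2.42 in DOX. The highest DOX library lay just above the lowest D_DXZ library. The log2 difference of Nfkbia was 1.15 (SE 0.324, unadjusted p = 0.00516, adjusted p = 0.334 in limma), larger than that of 99.8% of genes with a mean of at least 1 FPKM, and its 95% confidence interval ran from 0.43 to 1.87. Relb had 5.76, 4.99 and 4.90 FPKM in D_DXZ, all above the DOX libraries, with a log2 difference of 0.25 (adjusted p = 0.509 in limma).

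The other 8 members did not pass the unadjusted threshold with dexrazoxane, although Rel and Nfkbib did not overlap DOX. Rela had 19.1, 16.4 and 17.2 FPKM in D_DXZ, with a log2 difference of -0.02 and a confidence interval from -0.41 to 0.37. Nfkb1 had 7.14, 5.95 and 7.01 FPKM, with an interval from -0.32 to 0.25, and Nfkb2 had 61.1, 62.5 and 61.3 FPKM, with an interval from -0.43 to 0.11. Rel was above all DOX libraries at 1.93, 1.21 and 1.07 FPKM, and its interval ran from -0.05 to 0.65. Nfkbib was under all DOX libraries at 4.31, 3.90 and 3.21 FPKM, with a log2 difference of -0.30 (adjusted p = 0.536 in limma). Nfkbie (5.78, 5.39 and 5.35 FPKM), Nfkbiz (2.85, 2.11 and 1.98 FPKM) and Tnfaip3 (0.669, 0.444 and 0.321 FPKM) overlapped DOX. The widest of their intervals was that of Tnfaip3, from -0.70 to 0.63. A p above the threshold does not show that these levels were equal.

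Against Unt, 9 members were lower in D_DXZ and none was higher, where 18.0% of all genes tested fell and 15.9% rose, and the exception was Nfkb2 (log2 difference -0.22, adjusted p = 0.214 in limma). Nfkb2 was lower than in Unt with TPM (-1.41), summed reads (-0.98) and quantile normalization (-1.25). The median of genes with a mean of at least 1 FPKM was itself -1.10 with TPM and -0.62 with summed reads. Relative to the median, Nfkb2 was at -0.31 with TPM, -0.36 with summed reads and -1.25 with quantile normalization. Nfkbia remained at 7.64 ± 4.41 FPKM in D_DXZ (SD, n = 3), a log2 difference of -2.38 to Unt (adjusted p = 0.000305 in limma). The call of Nfkbie (-0.86, adjusted p = 0.0332) was lost when any 1 Unt or D_DXZ library was left out, with adjusted p from 0.0636 to 0.0938. The call of Tnfaip3 (-1.01, adjusted p = 0.0230) was lost without any 1 Unt library or without D_DXZ library 2 or 3, with adjusted p from 0.0586 to 0.0788. With 1 library of any group left out, the lowest adjusted p in limma was 0.0103 for Nfkbie and 0.00179 for Tnfaip3.

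MgHCF added to doxorubicin moved every member under the deposited scaling. In D_MgHCF against DOX, 9 members rose and 1 fell, where 31.4% of all genes tested rose and 20.1% fell. Of the 11515 genes with a mean of at least 1 FPKM, the share with a lower log2 change was 64.3% for Rel and 67.9% for Relb. It was 74.3% for Nfkb2, 78.9% for Rela and from 86.6% (Tnfaip3) to 99.8% (Nfkbia) for the inhibitors. The groups overlapped for none of the members, but the share of all genes without overlap is not given here. All 5 inhibitors rose, with log2 changes from 1.27 to 2.64. The member that fell was Nfkb1, and it was not lower with TPM or summed reads. Relative to the median of genes with a mean of at least 1 FPKM, Nfkb1 was at -0.74 as deposited and -0.78 with TPM. With summed reads it was at -0.69 and with quantile normalization at -0.99. The median log2 change of the 10 was 1.12, against 0.07 over all genes tested. These values share the DOX libraries with the comparisons above.

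Nfkbia had 21.3, 24.8 and 18.2 FPKM in D_MgHCF, all above the DOX and D_DXZ libraries and under those of Unt. Its log2 change against DOX was 2.64 (SE 0.324, adjusted p = 8.20e-05 in limma), larger than that of 99.8% of genes with a mean of at least 1 FPKM. Nfkbie had 13.7, 23.5 and 27.9 FPKM, above all libraries of the other 3 groups, and a log2 change of 1.64 against DOX (adjusted p = 0.000627 in limma). Nfkbib had 11.5, 15.96 and 16.5 FPKM, likewise above all libraries of the other groups, and a log2 change of 1.39 (adjusted p = 2.53e-05 in limma). Nfkbiz had 8.21 and 8.65 FPKM in libraries 1 and 2 and 4.00 in library 3, which lay under the Unt libraries. The log2 change of Nfkbiz was 1.33 (adjusted p = 0.000603 in limma). Tnfaip3 had the widest spread, with 5.15, 2.56 and 1.18 FPKM from 209 to 782 reads. All 3 lay above the DOX libraries, library 3 under the Unt libraries, and the log2 change was 1.27 (SE 0.299, adjusted p = 0.00509 in limma).

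Among the subunits, Nfkb2 had 113, 106 and 141 FPKM in D_MgHCF, above every library of the other groups. Its log2 change against DOX was 0.78 (adjusted p = 0.000405 in limma), and between 1.74 and 2.00 with summed reads, quantile normalization and TPM. Rela had 27.1, 34.2 and 48.7 FPKM, and its library 3 reached the Unt range while libraries 1 and 2 lay between DOX and Unt. The log2 change of Rela was 0.96 (SE 0.176, adjusted p = 0.00106 in limma). Relb had 5.88, 6.95 and 7.09 FPKM, between DOX and Unt, with a log2 change of 0.55 (adjusted p = 0.00188 in limma). Rel had 1.72, 1.35 and 1.70 FPKM, above DOX, with a log2 change of 0.42 (adjusted p = 0.0440 in limma). The call of Rel was lost in 9 of the 12 fits that left out 1 library, with adjusted p up to 0.121, and the change was 0.01 with quantile normalization. Nfkb1 had 4.00, 2.88 and 3.55 FPKM, under every library of the other groups. Its log2 change of -0.82 (SE 0.129, adjusted p = 0.000402 in limma) was -0.02 with summed reads (adjusted p = 0.897) and 0.21 with TPM (adjusted p = 0.239).

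**Figure D3:**
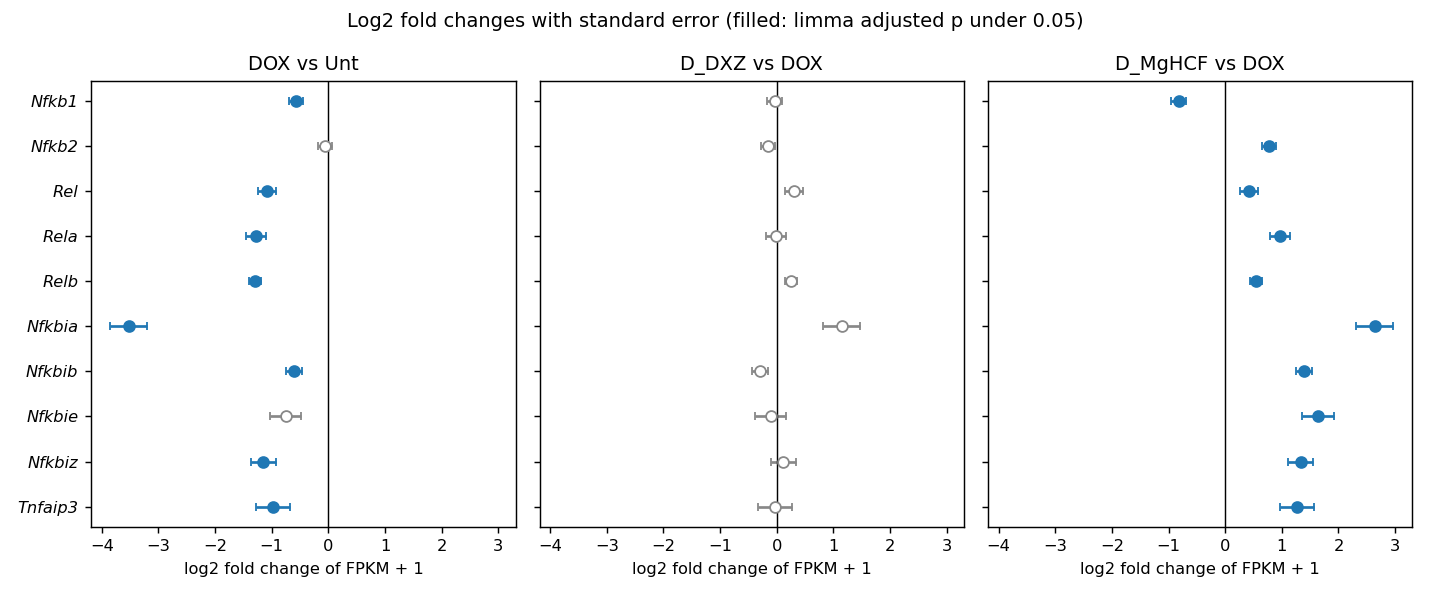
Log2 fold change of FPKM + 1 (x axis, deposited scaling) of the 10 members in 3 comparisons, with bars for the SE and filled points for an adjusted p under 0.05 in limma. In DOX against Unt 8 points are filled and all lie under 0, in D_DXZ against DOX none is filled, and in D_MgHCF against DOX all are filled, with Nfkb1 under 0 (0.21 with TPM).

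Compared with untreated cells, the members in D_MgHCF did not share a direction. Nfkb2 (0.72), Nfkbib (0.78) and Nfkbie (0.89) were higher than in Unt, Nfkb1 (-1.40), Relb (-0.74) and Rel (-0.66) were lower, and 4 were not called, where 24.3% of all genes tested rose and 15.7% fell. The fall of Nfkb1, from 10.7 ± 0.455 to 3.48 ± 0.563 FPKM (SD, n = 3, adjusted p = 5.27e-05 in limma), was the largest of these changes. It lay between -1.71 and -1.44 under the other scalings, and 4.20% of genes with a mean of at least 1 FPKM had a lower log2 change. Nfkbia was at -0.88 (adjusted p = 0.0521 in limma) although its libraries did not overlap those of Unt, with adjusted p from 0.00773 to 0.142 over 9 other settings, among them 0.0367 with the replicate block, and from 0.0150 to 0.119 when 1 library was left out. The rise of Nfkbie (adjusted p = 0.0276) was lost without Unt library 1, 2 or 3 or D_MgHCF library 2 or 3 (adjusted p from 0.0568 to 0.0876), with TPM (0.78, adjusted p = 0.120) and with the replicate block (adjusted p = 0.0504). Without D_MgHCF library 3, Rela was lower than in Unt (-0.53, adjusted p = 0.00521) and Nfkbiz (0.49, adjusted p = 0.00698) and Tnfaip3 (0.66, adjusted p = 0.0261) were higher, whereas with it they were at -0.31, 0.18 and 0.29 and not called.

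Between the treatments, 8 members were higher in D_MgHCF than in D_DXZ and 1 was lower, where 29.4% of all genes tested rose and 19.0% fell. The differences of the inhibitors ran from 1.21 for Nfkbiz to 1.75 for Nfkbie on the log2 scale. Those of Rela (0.98) and Nfkb2 (0.94) were called as well, and Rel was not (0.12, adjusted p = 0.556 in limma), except with TPM (0.99) and summed reads (0.58). The difference of Relb (0.30, adjusted p = 0.0457) was lost in 9 of the 12 fits that left out 1 library. Nfkb1 was lower (-0.79, adjusted p = 0.000635 in limma), but not with TPM (0.08) or summed reads (-0.15). In this comparison the median of genes with a mean of at least 1 FPKM was 0.82 with TPM and 0.51 with summed reads. Relative to these medians, Nfkb1 was at -0.74 and -0.66, against -0.68 as deposited, and Rel was at 0.17 and 0.07.

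The makeup of the family within each library is the same with FPKM as deposited, with TPM and with summed reads, which multiply all genes of a library alike, but not with quantile normalization. With the latter, for DOX against Unt, Nfkb2 was at -1.32 and Rela at -2.01, closer together than as deposited (-0.07 and -1.27). Nfkb2 accounted for 49.97% to 51.2% of the summed FPKM of the 5 subunits in the Unt libraries and for 67.2% to 72.4% in DOX, 69.8% to 74.5% in D_MgHCF and 64.3% to 68.7% in D_DXZ. The Unt range was apart from the other 3, which overlapped in part. Rela took 29.8% to 32.2% in Unt and 17.1% to 24.1% over the 9 libraries of the treated groups. Nfkb1 took 7.54% ± 0.379 in Unt, 7.05% ± 1.43 in DOX, 7.24% ± 0.608 in D_DXZ and 2.10% ± 0.473 in D_MgHCF (SD, n = 3). The highest D_MgHCF library, at 2.64%, was under the lowest of the other groups, at 5.41%. The level of Nfkb1 was 14.9% of that of Nfkb2 in Unt, 10.2% in DOX, 10.9% in D_DXZ and 2.92% in D_MgHCF on average. These shares are a description and were not tested.

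Among the 3 classical IkB genes, Nfkbia took 68.0% ± 1.32 of the summed FPKM in Unt and 18.9% ± 3.46 in DOX (SD, n = 3). In D_DXZ it took 55.3%, 41.7% and 30.8% in the 3 libraries, all above the DOX range of 14.9% to 21.0%. In D_MgHCF it took 45.8%, 38.6% and 29.1%, which overlapped D_DXZ and stayed under Unt. Nfkbie had the largest mean share in DOX, at 44.3% ± 6.75. The level of Nfkbia was 90.9% ± 13.3 of that of its partner Rela in Unt, 14.9% ± 5.77 in DOX, 42.6% ± 21.6 in D_DXZ and 62.8% ± 22.1 in D_MgHCF (SD, n = 3). The DOX values of this ratio, 9.76% to 21.2%, lay under every value of the other groups, the lowest of which was 22.1% in D_DXZ.

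**Figure D4:**
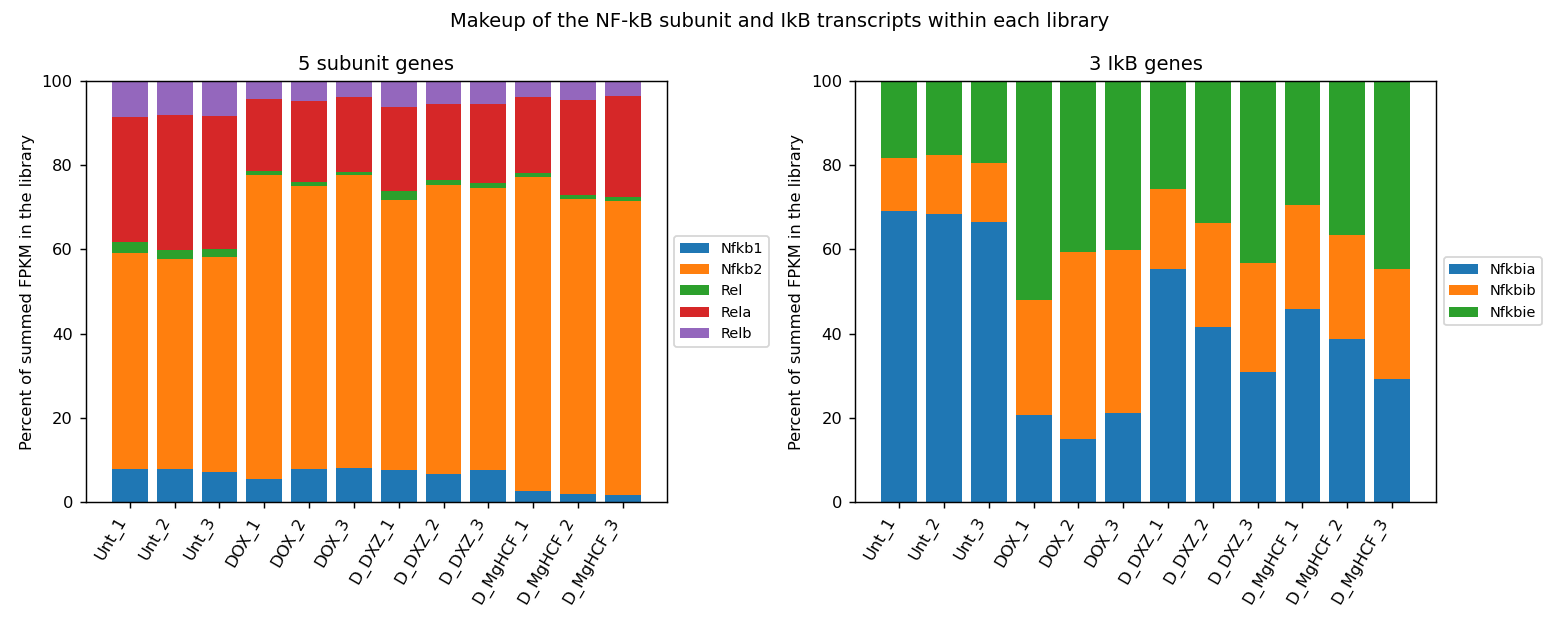
Percent of the summed FPKM (y axis, from 0 to 100) that each of the 5 subunit genes (left) and each of the 3 classical IkB genes (right) takes in each of the 12 libraries. The share of Nfkbia among the IkB genes was 66.6% to 69.1% in Unt and 14.9% to 21.0% in DOX, and the share of Nfkb1 among the subunits was at most 2.64% in D_MgHCF.

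The genes whose pattern was most like that of Nfkbia were sought among 11505 genes by the root mean square difference of centred log2(FPKM + 1) over the 12 libraries. They were Klf4, a transcription factor gene, with a difference of 0.225, Cyr61, which encodes a secreted matricellular protein, with 0.252, and Ier2, an immediate early gene, with 0.265, where Nfkbia itself varied with a root mean square of 1.40. Klf4 had mean levels of 27.3 FPKM in Unt, 2.28 in DOX, 5.26 in D_DXZ and 18.6 in D_MgHCF. For Rela, with a root mean square of 0.604, the most alike were Arfgap3 (0.122), Adrm1 (0.123) and Micall2 (0.125). Adrm1, a proteasome ubiquitin receptor, had mean levels of 18.7 FPKM in Unt, 6.73 in DOX, 6.63 in D_DXZ and 16.2 in D_MgHCF.

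The other genes of the pathway were described by role, beside the 18.6% of all genes tested that rose and the 19.9% that fell in DOX against Unt. For DOX against Unt, 0 of 12 receptors rose and 7 fell. Of 13 genes in the kinase list 2 rose and 8 fell, and of 17 adaptors and ubiquitin ligases 4 rose and 7 fell. The kinase list, called kinases below, also holds kinase partners and the ubiquitin ligase subunits Btrc and Fbxw11. The adaptor list also holds the kinases Ripk1, Irak1 and Irak4. Of 10 ligands tested 2 rose and 1 fell, of 14 other inhibitors 3 rose and 5 fell, of 25 target genes 3 rose and 10 fell, and of 8 genes that carry the DNA damage signal to NF-kB 4 rose and 3 fell. The median log2 change was -0.61 for the receptors, -0.58 for the kinases, -0.05 for the target genes and 0.18 for the ligands. With TPM, where the median of genes with a mean of at least 1 FPKM was -1.18, none of the kinases, receptors, ligands or other inhibitors rose, and 12 kinases, 9 receptors, 2 ligands and 12 other inhibitors fell. Of the target genes 1 then rose and 14 fell, of the adaptors 1 rose and 13 fell, and of the DNA damage genes 1 rose and 6 fell. Without D_MgHCF library 3, 6 target genes rose and 8 other inhibitors fell, and without D_MgHCF library 1 these counts were 5 and 8. Without DOX library 1, 4 ligands rose. The shares of all genes called with TPM or without a library are not given here, so these counts cannot be set against them. For D_DXZ against DOX none of these genes was called, as for all genes.

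For D_MgHCF against DOX, where 31.4% of all genes tested rose and 20.1% fell, 8 of 12 receptors rose and none fell, 16 of 25 target genes rose and 4 fell, and 10 of 17 adaptors rose and 3 fell. Of 13 kinases 7 rose and 3 fell, of 14 other inhibitors 4 rose and 2 fell, of 10 ligands 3 rose and 3 fell, and of 8 DNA damage genes 3 rose and 3 fell. The median log2 change was 0.81 for the receptors and 0.56 for the target genes, against 0.07 over all genes tested. With quantile normalization the target genes that rose were 8 of 25 and the adaptors 4 of 17. The median log2 change was then 0.29 for the target genes and 0.24 for the adaptors, against -0.06 for genes with a mean of at least 1 FPKM. The target genes that rose were 10 without DOX library 2, 10 without DOX library 3, 9 in a fit of the 2 groups compared, and 12 to 17 without any 1 of the other libraries. The other inhibitors that rose were 7 without D_MgHCF library 1. With TPM, the median log2 change of genes with a mean of at least 1 FPKM was 0.99. Under that scaling 19 target genes, 14 adaptors, 11 kinases, 11 other inhibitors and 5 DNA damage genes rose, and 1, 2, 0, 1 and 0 fell. The shares of all genes called in these other settings are not given here, so the counts cannot be set against them.

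Tnfrsf1a, the main tumour necrosis factor receptor, went from 30.6 ± 1.48 FPKM in Unt to 5.11 ± 3.13 in DOX (log2 change -2.49, adjusted p = 0.000784 in limma). In D_MgHCF it was at 27.5 ± 13.9 FPKM (2.23 against DOX, adjusted p = 0.00143). Traf2, an adaptor of that receptor, fell from 10.4 ± 0.882 to 1.74 ± 0.577 FPKM in DOX. Tab1, a partner of the kinase encoded by Map3k7, fell from 14.1 ± 0.652 to 2.55 ± 0.445 FPKM (log2 change -2.09). Irak1, a kinase of interleukin and Toll-like receptor signalling, moved the other way, from 18.0 ± 1.44 FPKM in Unt to 62.8 ± 8.80 in DOX and 14.1 ± 4.68 in D_MgHCF (SD, n = 3). Map3k7 rose in DOX by 1.23 and Hmgb1, a chromatin protein that acts as a ligand when released, by 1.13, but with TPM these were -0.08 and -0.16. Hmgb1 fell in D_MgHCF against DOX (-2.02). Parp1, a DNA damage sensor, went from 32.0 to 109 FPKM in DOX (1.74) and was at 42.5 in D_MgHCF (-1.35 against DOX, not called with TPM or quantile normalization). Pias4, a SUMO ligase of the DNA damage route, fell by 1.48 in DOX and rose by 1.37 in D_MgHCF against DOX.

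Among the target genes, Sod2, the mitochondrial superoxide dismutase, rose from 14.5 ± 0.529 FPKM in Unt to 56.1 ± 7.93 in DOX (SD, n = 3, log2 change 1.87, adjusted p = 1.06e-05 in limma). Cxcl1, a neutrophil chemokine, fell from 14.998 ± 1.09 to 2.50 ± 0.487 FPKM (log2 change -2.20, adjusted p = 0.00993). Ier3, a stress-inducible survival gene, rose from 3.31 ± 0.714 FPKM in DOX to 41.0 ± 24.9 in D_MgHCF (log2 change 3.02, adjusted p = 0.000338), with 12.3 FPKM in its lowest library. Ccl20, a chemokine, fell from 4.66 ± 0.631 to 0.570 ± 0.129 FPKM in the same comparison. Of the other named genes, N4bp1 (-1.88), an inhibitor of the pathway, fell in DOX, and Ltb (2.29), Birc2 (1.84), Otud7b (1.33) and Tbk1 (1.13) rose in D_MgHCF against DOX, whereas Tab2 (-1.50) fell. Commd1, which promotes the degradation of the Rela product, rose by 1.06 in DOX and fell by 1.24 in D_MgHCF against DOX, but the first of these was not called with TPM or summed reads, and the call of Tab2 was lost with TPM.

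**Figure D5:**
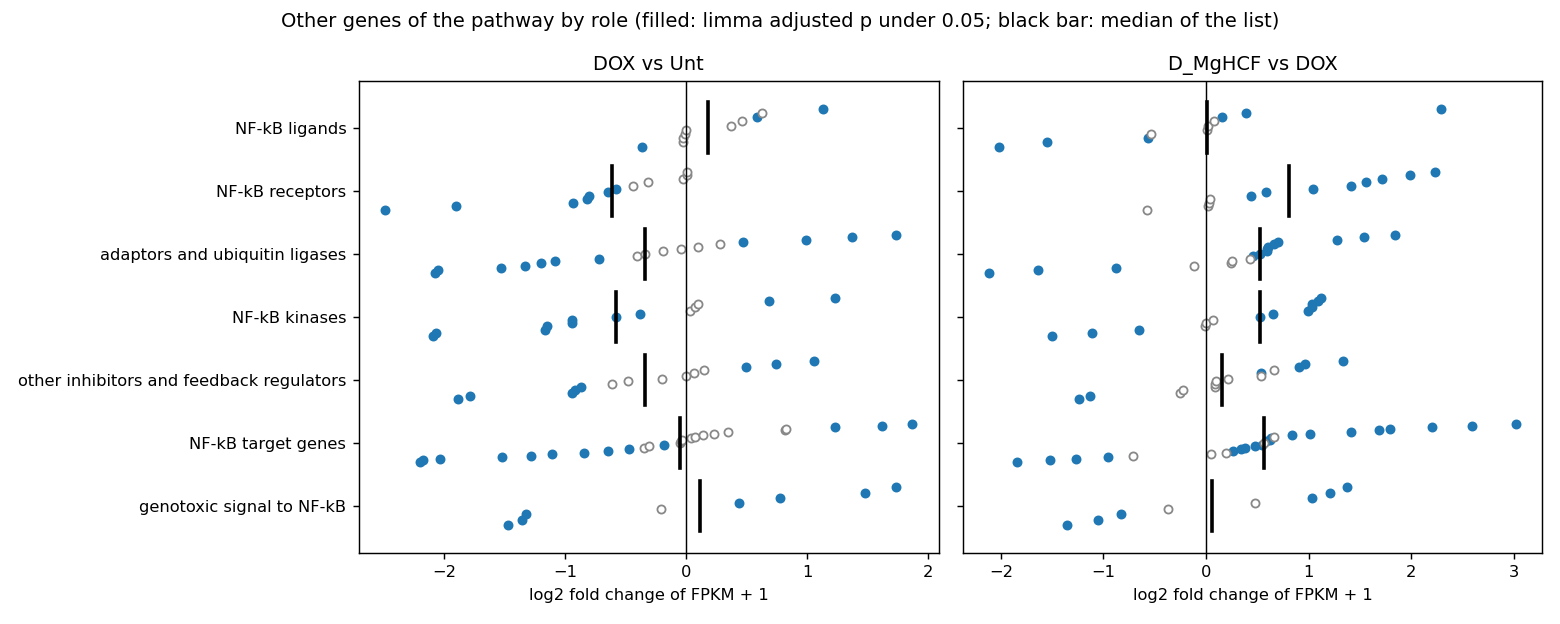
Log2 fold change of FPKM + 1 (x axis, deposited scaling) of the other pathway genes by role for DOX against Unt and D_MgHCF against DOX, with filled points for an adjusted p under 0.05 in limma and a black bar for the median of each list. No receptor is filled to the right of 0 in DOX against Unt and none to the left of 0 in D_MgHCF against DOX, where 8 of 12 are filled.

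Some members share positions with other genes, and whether the counting used strand is not given in the sources used here. Nfkbib overlaps 778 bases of Sirt2, a deacetylase gene on the opposite strand. It also overlaps 718 bases of Ccer2, likewise on the opposite strand, which had at most 0.579 FPKM. Sirt2 rose by 1.12 in DOX against Unt and fell by 1.27 in D_MgHCF against DOX, opposite to Nfkbib in both. Nfkb2 shares 4 bases of gene span and 299 bases of transcript with Psd on the opposite strand. Psd rose by 0.74 in DOX against Unt, where Nfkb2 was not called, and by 1.20 in D_MgHCF against DOX, where Nfkb2 rose too. Nfkb1 contains a gene model on the same strand that had 3.5 reads per library on average. Among mouse transcripts, the matches of members to another gene, of at least 95% identity over 150 bases, were all antisense. They covered 299 bases of Psd and 502 bases of AC114539.1 for Nfkb2, and 316 bases of Ccer2 for Nfkbib.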

How the data were processed

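The authors deposited FPKM values of 54345 genes in 12 libraries on GRCm38, under mouse Ensembl gene identifiers and with the length of each gene. The submitters' processing notes name HISAT2 2.0.5 and GRCm38 (mm10), and the counting program is not given in the sources used here. Every FPKM times gene length came out as a whole number of reads within 0.05 read. These reads showed that the deposited values contain a median-ratio scaling. No sample column was left unused.

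Groups were taken from the labels. Log2(FPKM + 1) of 25044 genes above 0 in at least 3 libraries was fitted with limma 3.58.1 (trend) in R 4.3.3, all 4 groups together, with Benjamini-Hochberg adjustment over all genes and calls at an adjusted p under 0.05, in 6 comparisons. The fit was tested on simulated data. Start regions came from RefSeq and near copies from BLAST 2.17.0 on GENCODE transcripts (at least 95% identity over 150 bases).

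All 10 members are named. From each pathway list the gene with the largest rise and that with the largest fall in DOX against Unt and in D_MgHCF against DOX are named, provided that the gene was called, that its higher group averaged 1 FPKM or more and that its libraries did not overlap. For Nfkbia and Rela the 3 genes most alike in pattern are named. The members and lists were chosen with earlier results of these data known.

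The alternatives were a pseudocount of 0.1, a minimum FPKM of 1, no filter, unadjusted p, a 2-fold minimum, TPM, summed reads, quantile normalization, voom on the recovered reads, each library left out, fits without the 2 groups not compared, and a replicate block. Their use on the pathway lists and genes was added after the data were seen. The study describes its test as one on the negative binomial distribution. Here limma was used because the deposited unit is FPKM.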

Additional observations from a re-analysis of the deposited data

How the results depend on the processing

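With a 2-fold minimum, the members called were 5 (5 lower) for DOX against Unt, 5 (5 higher, 0 lower) for D_MgHCF against DOX, 5 (5 lower) for D_DXZ against Unt, 1 (0 higher, 1 lower) for D_MgHCF against Unt and 5 (5 higher, 0 lower) for D_MgHCF against D_DXZ. At an unadjusted p, 2 members were higher for D_DXZ against DOX. The shares of all genes called with a 2-fold minimum or under the other scalings are not given here. With TPM and with summed reads, 0 members were lower for D_MgHCF against DOX or against D_DXZ, since the difference of Nfkb1 became 0.208 and 0.0799 on the log2 scale with TPM. For DOX against Unt with TPM, Hmgb1 was at -0.16 and Map3k7 at -0.0792. The cause was not tested beyond the shift of all genes given with the scalings. All other counts of members stayed within 1.5 times the main count, in the other settings and with each library left out.

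Same-numbered libraries had correlations of their deviations from -0.409 to 0.422 over 18 pairs, of which 3 passed 0.1. Of 36 pairs with different numbers, 8 passed it. Same-numbered libraries were at 0.42, 0.05 and 0.35 between DOX and D_DXZ and at -0.26, 0.02 and -0.10 between DOX and D_MgHCF. Deviations within a group of 3 sum to 0, so these values cannot settle whether the numbers pair the samples. With the replicate block, the members called were 8 for DOX against Unt, 0 for D_DXZ against DOX, 10 for D_MgHCF against DOX, 8 for D_DXZ against Unt, 6 for D_MgHCF against Unt (Nfkbia gained and Nfkbie lost) and 8 for D_MgHCF against D_DXZ. The shares of all genes called with the block are not given here.

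Depth limits Nfkbia, Tnfaip3 and Rel most, since their lowest libraries held 36, 31 and 71 reads.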
